A study of Mus musculus with 12 samples.

Results

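Ribosome footprints were compared with mRNA in RAW264 cells, a mouse macrophage line, that had been given lipopolysaccharide (LPS) and the glucocorticoid dexamethasone (DEX) together. The comparison uses 4 of the 12 libraries of the study: 2 of ribosome-protected fragments (RPF, or footprints) and 2 of poly(A) mRNA, chosen by their labels. Both agents were present for 30 min, LPS at 100 ng/ml and DEX at 10 µM. The study also holds untreated (basal) cells and cells given LPS alone at the same dose and time, each with 2 libraries per assay. Cells of every group were incubated with cycloheximide, which holds cytosolic ribosomes on mRNA, at 100 µg/ml before extraction. The series describes the replicates as 2 independent biological replicates of one cell line.

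LPS, a component of the outer membrane of Gram-negative bacteria, is sensed by TLR4 and turns on NF-kB and the MAP kinases. Within minutes macrophages transcribe immediate early factors, cytokines and the inhibitors that later switch the response off. Glucocorticoids act through the receptor Nr3c1, which represses many inflammatory genes and induces others, among them the MAP kinase phosphatase Dusp1. Sequencing footprints beside mRNA gives a translational efficiency (TE), the number of footprints a gene has for its mRNA. Some mRNAs are known for a TE set by their own sequence: upstream reading frames in Atf4 and Ppp1r15a, iron-responsive elements in ferritin mRNAs, and the terminal oligopyrimidine (TOP) tract at the start of ribosomal protein mRNAs.

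Values are CPM, reads of a gene scaled to the total reads of its library. TE is given as the log2 ratio of RPF to mRNA, after adding 1 CPM to each, minus the median of that ratio over all genes tested, so that 0 is the median gene. A gene called higher or lower had a TE level that differed from the median gene at an adjusted p under 0.05 (limma, Benjamini-Hochberg over all genes tested, two-sided). Fold values of TE are on this scale and relative to the median gene. The part of a gene over which reads were counted is not given in the sources used here and no transcript lengths were used, so the ratios are not adjusted for the coding share of a transcript. Each library pools a whole culture, in which a lower value in all cells and a 0 in some of them cannot be told apart.

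The mRNA libraries of LPS + DEX held 2529666 and 2256871 reads and the RPF libraries 1653342 and 1833560, where 1 read is worth 0.395 to 0.605 CPM. All 18 macrophage markers looked for were listed, with summed levels of 7089 to 7344 CPM in mRNA and 8290 to 8521 CPM in RPF. None of the markers of T cells, B cells, endothelium, hepatocytes, erythroid cells or granulocytes was among the listed genes. Every listed gene reached a deposited value (CPM + 1) of at least 16.02 in some library. A gene that is not listed may thus have been present at a lower level. Of 8 epithelial markers Ddr1 and Krt7 were listed, with a sum of 2.66 to 6.72 CPM in mRNA and 17.5 to 33.3 CPM in RPF. Of 5 fibroblast markers Col3a1 was listed, at 61.6 to 75.1 CPM in mRNA and 128 to 134 CPM in RPF. The part of these transcripts in any result was not tested. One library outside the LPS + DEX group stood apart: mRNA of basal replicate 1 had Spearman correlations of 0.841 to 0.897 with the other 5 mRNA libraries, which had 0.882 to 0.977 among themselves. It bears on the differences from basal cells, which are therefore also given without it.

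Footprints followed mRNA across the 9215 genes tested at a Pearson correlation of 0.705 (Spearman 0.729), while replicates of one assay had Pearson correlations of 0.971 (mRNA) and 0.981 (RPF). These are correlations across genes, which are not independent replicates. TE levels had an SD over genes of 1.36 on the log2 scale, with quartiles at -0.69 and 0.65. The TE of replicate 1 and that of replicate 2, each from 1 RPF and 1 mRNA library, had a Pearson correlation of 0.927. TE was called higher than the median gene for 2408 genes (26.1% of those tested) and lower for 2326 (25.2%). These 2 shares are the background for every count of list members. Of the genes tested, 191 were at or under 3 reads in both libraries of 1 assay and passed the filter through the other. The side of the median gene on which these lay was set in advance. A total of 1448 genes lay at or above 1 and 1644 at or below -1.

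**Figure D1:**
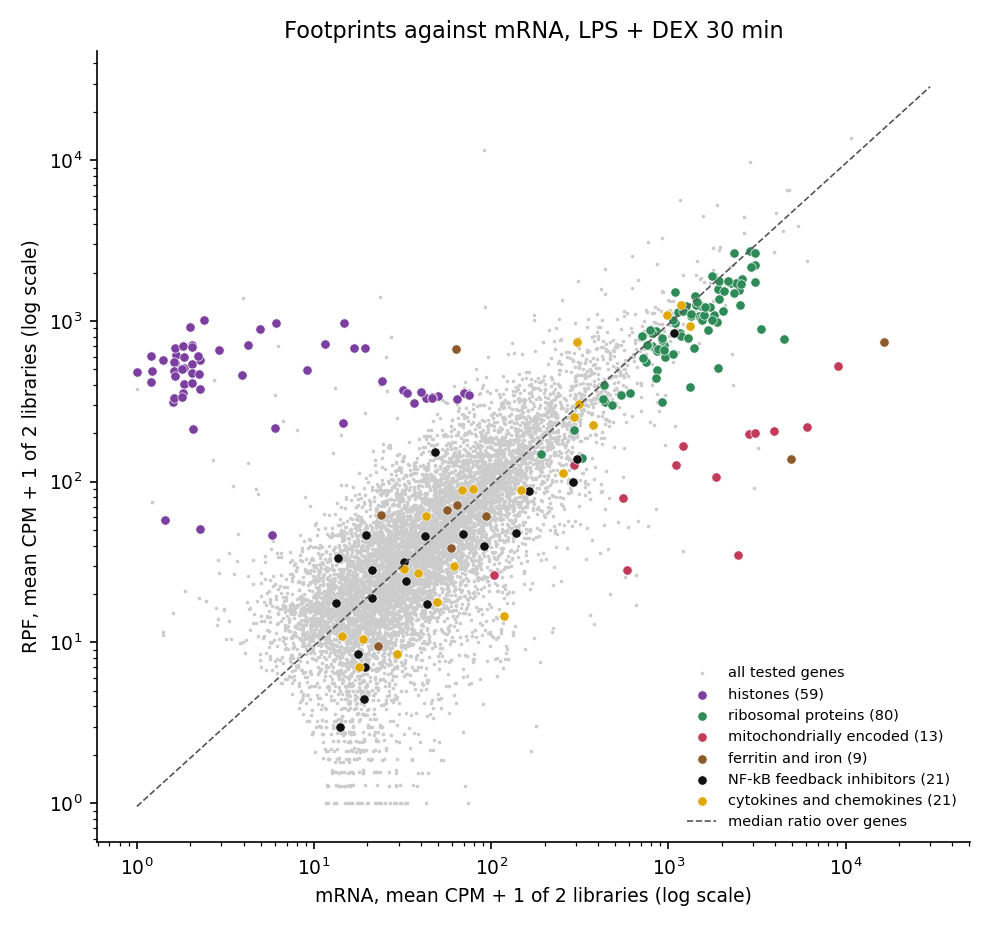
Mean CPM + 1 of the 2 RPF libraries (vertical) against that of the 2 mRNA libraries (horizontal), both on log axes, for the 9215 genes tested with LPS + DEX; the dashed line is the median ratio. Histone genes lie far above the line, mitochondrially encoded genes and the 2 ferritin genes Fth1 and Ftl1 far below it, and the 80 ribosomal protein genes mostly a little below it.

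**Figure D2:**
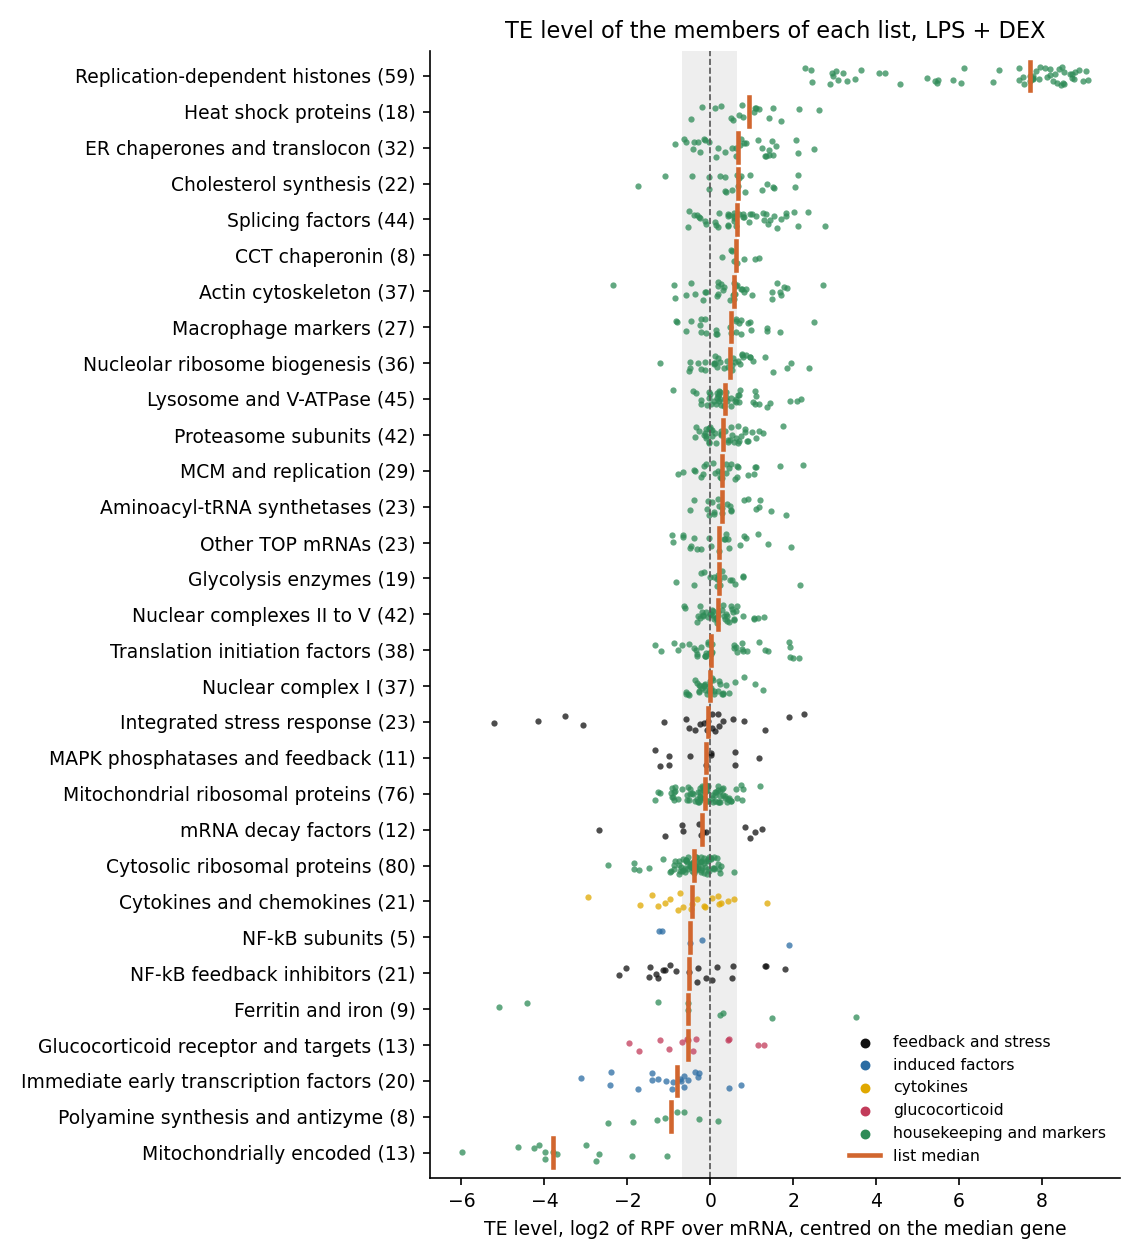
TE level (log2, centred on the median gene) of every tested member of the lists shown, each with at least 5 members; the number of members is in brackets, the orange bar is the list median and the grey band runs between the quartiles of all genes. List medians run from -3.80 for mitochondrially encoded genes to 7.72 for histones, and those of the feedback, early factor, cytokine and glucocorticoid lists lie between -0.81 and -0.11.

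Inhibitors of NF-kB signalling had a median TE of -0.50, with 8 of 21 members lower, 3 higher and 10 not called (background 25.2% lower and 26.1% higher). Tnfaip3, the deubiquitinase A20, had 273 and 302 CPM of mRNA and 107 and 88.9 CPM of footprints. Its TE was -1.48 ± 0.31 (SE, with the spread taken from all 12 libraries, adjusted p = 0.00144), or 2.79-fold below the median gene. Both footprint libraries lay under both mRNA libraries. In basal cells this gene stood at 9.49 and 13.5 CPM of mRNA. Nfkbia, the inhibitor IkB-alpha that NF-kB itself induces, had 1086 and 1077 CPM of mRNA and 859 and 813 CPM of footprints. Its TE of -0.31 ± 0.16 was not called (adjusted p = 0.122). The nuclear IkB proteins were lower: Nfkbid had 139 and 135 CPM of mRNA and 48.99 and 44.7 CPM of footprints (TE -1.46, adjusted p = 0.000195), and Bcl3 had 19.8 and 16.4 CPM of mRNA and 3.02 and 3.82 CPM of footprints (TE -2.04, adjusted p = 0.000715). Nfkbiz, another of them, had 295 and 317 CPM of mRNA and 161 and 115 CPM of footprints (TE -1.10, adjusted p = 0.0117).

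Socs3, a feedback inhibitor of cytokine receptors, had 42.3 and 42.1 CPM of mRNA and 14.5 and 17.998 CPM of footprints (TE -1.26, adjusted p = 0.00916). Tnip1, a partner of A20, had a TE of -0.83 (adjusted p = 0.00118), Otulin, a linear-ubiquitin protease, -1.14 (adjusted p = 0.00044), and Rnf11, a ring finger protein of the A20 complex, -2.21 (adjusted p = 0.00951). Other members of the A20 complex stood on the other side. Tax1bp1, its ubiquitin-binding adaptor, had 32.4 and 61.6 CPM of mRNA and 145 and 159 CPM of footprints, 3.49-fold above the median gene (TE 1.80, adjusted p = 4.74e-05). Itch, its E3 ligase, had a TE of 1.31 (adjusted p = 0.00211) and Tnip3, another protein that binds A20, one of 1.34 (adjusted p = 0.00201). Leaving out 1 of the 4 libraries ended the calls of Nfkbiz without mRNA or RPF replicate 2 (adjusted p = 0.0554 to 0.115) and of Socs3 and Rnf11 without mRNA replicate 1 or RPF replicate 1 (adjusted p = 0.0559 to 0.0761).

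Of 11 MAP kinase phosphatases and other feedback regulators tested (20 were looked for) 4 were lower and 2 higher, with a median of -0.11. Dusp1, which dephosphorylates p38 and JNK and is induced by glucocorticoids, had 441 and 483 CPM of mRNA and 223 and 221 CPM of footprints, against 52.2 and 15.7 CPM of mRNA in basal cells and 41.4 and 54.9 with LPS alone. Its TE was -0.99 ± 0.38 (SE; adjusted p = 0.045), or 1.98-fold below the median gene. Both footprint libraries lay under both mRNA libraries, and the call was lost in 14 of 25 alternative analyses, among them each that left out 1 of the 4 libraries. It was kept in the fit of only the 4 LPS + DEX libraries and in that of the 8 libraries of LPS and LPS + DEX. The main fit also takes in the spread of the basal libraries, where mRNA of Dusp1 was 52.2 and 15.7 CPM. Dusp2 had 101 and 101 CPM of mRNA and 40.5 and 56.7 CPM of footprints (TE -0.99, adjusted p = 0.0191). Spred2, an inhibitor of Ras to ERK signalling, had a TE of -1.32 (adjusted p = 0.00201) and Errfi1, an inhibitor of the EGF receptor, one of -1.20 (adjusted p = 0.03). Dusp6, the cytosolic ERK phosphatase, had 18.97 and 15.95 CPM of mRNA and 44.2 and 33.8 CPM of footprints and stood 2.26-fold above the median gene (TE 1.17, adjusted p = 0.0031). Dusp3 was higher as well (TE 0.61, adjusted p = 0.00844). Only 1 or 2 members were lower when any 1 of the 4 libraries was left out, which ended the calls of Errfi1 in every case, of Dusp2 in 3 (without RPF replicate 2 it kept its call) and of Dusp3 without RPF replicate 1 (adjusted p = 0.06 to 0.152).

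Factors that shorten the life of mRNAs were mostly not called: 2 of 12 were lower and 1 higher, with a median of -0.20. Zc3h12a, the endonuclease Regnase-1, had 79.9 and 73.996 CPM of mRNA and 11.5 and 9.82 CPM of footprints, 6.40-fold below the median gene (TE -2.68 ± 0.49, adjusted p = 0.000538). Zfp36, or tristetraprolin, which binds AU-rich elements of cytokine mRNAs, had 410.3 and 424 CPM of mRNA and 184 and 188 CPM of footprints. Its footprint libraries lay under its mRNA libraries, but the TE of -1.10 ± 0.50 was not called (adjusted p = 0.0826), and in 8 of 25 alternatives it was. Its paralogs Zfp36l1 (0.83, adjusted p = 0.074) and Zfp36l2 (-0.23, adjusted p = 0.29) were not called either, although Zfp36l1 was in 6 of 25 alternatives. Btg1, a partner of the CCR4-NOT deadenylase, was lower (TE -0.69, adjusted p = 0.00717; adjusted p = 0.0584 without RPF replicate 1), and Tob2, of the same family, was higher (TE 1.24, adjusted p = 0.00431). Without either of the 2 basal mRNA libraries, which share the estimate of the spread, 4 members were higher, and 2 were without mRNA replicate 1 of LPS + DEX.

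Immediate early transcription factors had the lowest median of the signalling lists, -0.81: 12 of the 20 measured were lower and none was higher, and 12 of the 32 looked for were not listed. Junb, an AP-1 subunit, had 958 and 807 CPM of mRNA and 329.6 and 304 CPM of footprints (TE -1.40, adjusted p = 0.000626), which was 2.65-fold below the median gene. Ier2 had 591 and 529 CPM of mRNA and 153 and 167 CPM of footprints (TE -1.73, adjusted p = 0.000614). In both genes the 2 footprint libraries lay under the 2 mRNA libraries. Jund was the lowest, with 111 and 87.7 CPM of mRNA and 11.5 and 8.73 CPM of footprints (TE -3.11, adjusted p = 5.88e-06). Srf, the serum response factor, had 164 and 141 CPM of mRNA and 30.2 and 23.5 CPM of footprints (TE -2.40, adjusted p = 8.09e-06). Nr4a1, an orphan nuclear receptor, had 53.8 and 64.7 CPM of mRNA and 11.5 and 8.18 CPM of footprints (TE -2.42, adjusted p = 0.0408). Fos was not called, with 52.97 and 61.1 CPM of mRNA and 36.9 and 52.4 CPM of footprints (TE -0.30, adjusted p = 0.501), and its AP-1 partner Jun was lower (TE -0.73, adjusted p = 0.0233). Cebpb (-0.89), Ier3 (-1.07), Ier5 (-0.93), Arc (-1.40), Mafg (-0.64) and Atf3 (-0.62) made up the rest of the lower members. With 1 of the 4 libraries left out 6 or 7 members were lower; Arc, Atf3, Jun, Mafg and Nr4a1 lost their calls in each such case and Ier5 without mRNA replicate 1 or RPF replicate 1 (adjusted p = 0.0564 to 0.199).

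The 5 NF-kB subunits did not share a level. Rela, the p65 subunit, had 108 and 83.3 CPM of mRNA and 33.3 and 47.4 CPM of footprints (TE -1.17, adjusted p = 0.000378), and Relb was lower as well (TE -1.23, adjusted p = 0.00516; adjusted p = 0.0722 without mRNA replicate 1). Rel, or c-Rel, went the other way, with 6.72 and 7.09 CPM of mRNA and 28.4 and 26.2 CPM of footprints, 3.75-fold above the median gene (TE 1.91, adjusted p = 0.000251). The precursors Nfkb1 (-0.19, adjusted p = 0.339) and Nfkb2 (-0.49, adjusted p = 0.0903) were not called.

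**Figure D3:**
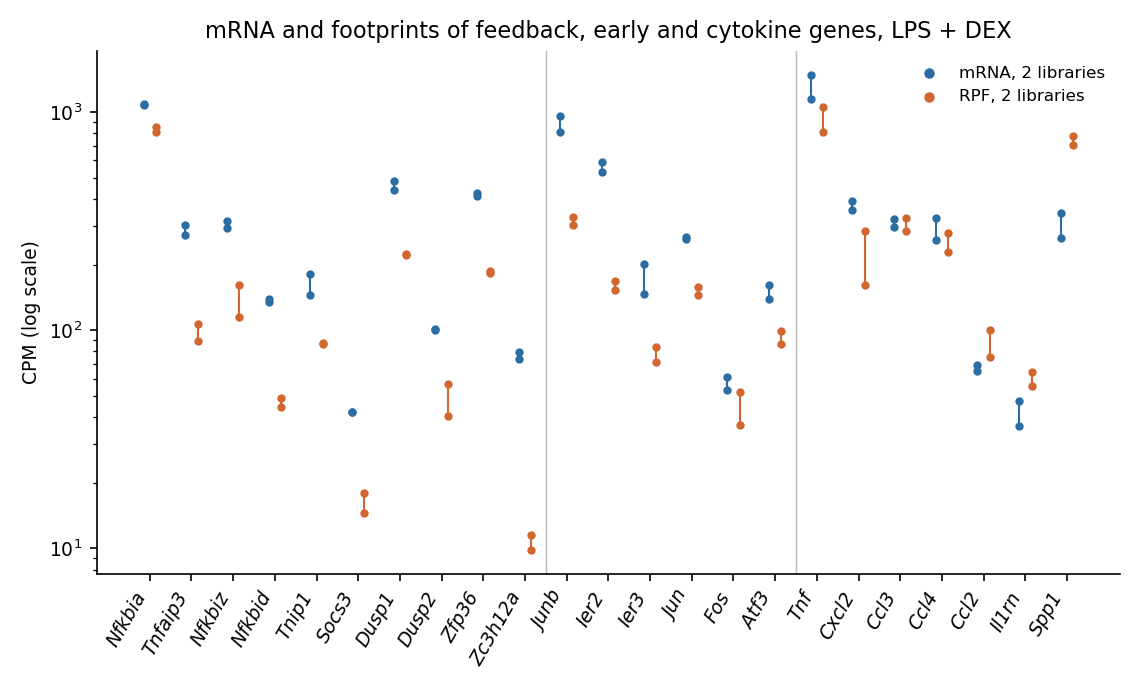
CPM (log axis) in each of the 2 mRNA libraries (blue) and 2 RPF libraries (orange) of LPS + DEX, without centring, for inhibitors and decay factors (left), early transcription factors (middle) and cytokines (right). Both footprint libraries lie under both mRNA libraries in the 16 inhibitors, decay factors and early factors, overlap them in Ccl3 and Ccl4, and lie above them in Ccl2, Il1rn and Spp1.

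Cytokines and chemokines had a median TE of -0.43, with 6 of 21 lower, 1 higher and 14 not called; 61 were looked for. Tnf, the tumour necrosis factor, had 1486 and 1152 CPM of mRNA and 1057 and 813 CPM of footprints, and 79.99 and 87.7 CPM of mRNA in basal cells. Its TE of -0.43 ± 0.19 (SE) was not called (adjusted p = 0.0703), and in 14 of 25 alternatives it was. The neutrophil chemokine Cxcl2 had 390.2 and 355 CPM of mRNA and 284 and 162 CPM of footprints, with footprint libraries further apart than the mRNA libraries (TE -0.73 ± 0.44, adjusted p = 0.185). Cxcl3, a related chemokine, had 49.4 and 47.9 CPM of mRNA and 16.3 and 17.5 CPM of footprints and was lower (TE -1.41, adjusted p = 0.0307). The monocyte and macrophage chemokines Ccl3 (0.04, adjusted p = 0.867), Ccl4 (-0.14, adjusted p = 0.537) and Ccl2 (0.44, adjusted p = 0.0962) were not called. For Ccl3 the libraries overlapped, at 324 and 299 CPM of mRNA and 326 and 285 CPM of footprints. Nor was Il1rn, the antagonist of the interleukin-1 receptor (TE 0.58, adjusted p = 0.12).

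The growth factors Vegfb, Pdgfb and Tgfb1 were among the lower members. Vegfb had 116 and 117 CPM of mRNA and 11.5 and 15.8 CPM of footprints, 7.75-fold below the median gene (TE -2.95 ± 0.30, adjusted p = 5.13e-06). Pdgfb had 33.6 and 23.04 CPM of mRNA and 7.26 and 7.64 CPM of footprints (TE -1.71, adjusted p = 0.00187), and Tgfb1, which restrains inflammation, 303 and 204 CPM of mRNA and 121 and 103 CPM of footprints (TE -1.08, adjusted p = 0.000156). In all 3 the footprint libraries lay under the mRNA libraries. Of the TNF family Ltb (-0.98) and Tnfsf9 (-0.67) were lower. Spp1, osteopontin, was the only member higher, with 266 and 345 CPM of mRNA and 779 and 708 CPM of footprints, 2.56-fold above the median gene (TE 1.36, adjusted p = 0.000955). Between 3 and 10 members were lower across the 25 alternatives: 3 without mRNA replicate 1 or RPF replicate 2, which ended the calls of Ltb and Tnfsf9, while Cxcl3 was not called whichever 1 of the 4 libraries was left out (adjusted p = 0.0616 to 0.145). Without either mRNA library of LPS 2 members were higher.

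The list of the glucocorticoid receptor and genes taken as its targets had a median of -0.53, with 6 of 13 tested lower and 2 higher (22 were looked for). It was drawn up with earlier results of these data known and is not an independent set. Per1, a clock gene with a glucocorticoid response element, had 193 and 176 CPM of mRNA and 53.2 and 36.5 CPM of footprints, 3.92-fold below the median gene (TE -1.97 ± 0.31, adjusted p = 0.000186). The chemerin-binding receptor Ccrl2 had 86.2 and 85.1 CPM of mRNA and 27.2 and 21.3 CPM of footprints (TE -1.72, adjusted p = 0.00266). Footprints lay under mRNA in both libraries of either gene. Sdc4, a heparan sulfate proteoglycan, had 245 and 206 CPM of mRNA and 161 and 130.3 CPM of footprints (TE -0.56, adjusted p = 0.024), and the metallothionein Mt1 had 216 and 208 CPM of mRNA and 120.4 and 129.8 CPM of footprints (TE -0.69, adjusted p = 0.000743). Dusp1 and Errfi1 of the MAP kinase list are the other lower members. The receptor Nr3c1 itself had 13.4 and 16.8 CPM of mRNA and 41.1 and 26.2 CPM of footprints (TE 1.14, adjusted p = 0.00555) and annexin A1, an anti-inflammatory protein, 77.9 and 92.2 CPM of mRNA and 221 and 182 CPM of footprints (Anxa1, TE 1.30, adjusted p = 7.75e-05). Fkbp5 (0.46, adjusted p = 0.0914) and Tsc22d3, or GILZ (-0.41, adjusted p = 0.543), were not called, the latter at only 11.5 and 9.305 CPM of mRNA. Without mRNA replicate 1 or RPF replicate 2 the number of lower members was 3; Sdc4 then lost its call (adjusted p = 0.173 to 0.199), and Nr3c1 did so without RPF replicate 1 (adjusted p = 0.0905).

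In the integrated stress response, in which phosphorylated eIF2 lowers general initiation, 5 of 23 members were lower and 4 higher, and the median of -0.04 was near that of all genes. The lowest members were Ppp1r15a, Atf5, Atf4 and Ddit3. The part of upstream reading frames in the levels of this list was not tested. Ppp1r15a, or GADD34, which directs a phosphatase to eIF2, had 667 and 643 CPM of mRNA and 15.1 and 16.9 CPM of footprints. That was 36.9-fold below the median gene (TE -5.20 ± 0.28, adjusted p = 1.16e-08), at an mRNA level of 39.3 and 47.6 CPM in basal cells. Atf4, the transcription factor of the pathway, had 487 and 426 CPM of mRNA and 39.3 and 35.5 CPM of footprints (TE -3.51 ± 0.13, adjusted p = 3.6e-10), 11.4-fold below. Atf5 had 38.7 and 29.2 CPM of mRNA and 2.42 and 0 CPM of footprints. Ddit3, or CHOP, had 17.8 and 18.2 CPM of mRNA, and with 1.21 and 1.09 CPM both of its footprint libraries stood at or under 3 reads, so no ratio is given. It is counted among the 5 lower members, but it passed the filter through mRNA alone. That it lay below the median gene was thus set in advance. Ppp1r15b, the constitutive partner of the eIF2 phosphatase, was not called, at 67.2 and 70.01 CPM of mRNA and 57.5 and 66.5 CPM of footprints (TE -0.08, adjusted p = 0.708).

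Among the eIF2 kinases the level differed: Eif2ak2, or PKR, was higher (TE 2.25, adjusted p = 0.000743, from 3.56 and 15.1 CPM of mRNA and 41.1 and 34.9 CPM of footprints), Eif2ak1 was lower (TE -0.52, adjusted p = 0.0254, not called whichever 1 of the 4 libraries was left out, adjusted p = 0.0625 to 0.117), and Eif2ak3 (0.30) and Eif2ak4 (-0.58) were not called. Eif2s1, the phosphorylated subunit of eIF2, was higher (TE 1.32, adjusted p = 2.14e-05). Of the amino acid genes that Atf4 activates, the cystine transporter Slc7a11 (TE 1.90, adjusted p = 0.000429) and Psat1 of serine synthesis (TE 0.55, adjusted p = 0.00147) were higher, while Asns (0.21), Slc3a2 (0.10), Slc7a5 (0.19), Phgdh (-0.25) and Shmt2 (0.05) were not called.

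Ribosomal protein genes were among the lower families. Of 80 measured, 50 were lower and 2 higher (Rpl23 and Rpl7), around a median of -0.39 that was -0.38 in replicate 1 and -0.40 in replicate 2. The higher count was 0 without mRNA replicate 1, 6 without mRNA replicate 2 and 1 without RPF replicate 1 or either RPF library of LPS or mRNA library of basal cells. The large subunit had a median of -0.35 (29 of 47 lower) and the small subunit one of -0.45 (21 of 33 lower). The median stayed below 0 in all 25 alternatives (-0.52 to -0.35). Rplp0, of the stalk that binds elongation factors, had 4761 and 4206 CPM of mRNA and 769 and 782 CPM of footprints, 5.51-fold below the median gene (TE -2.46 ± 0.10, adjusted p = 4.16e-10). Its stalk partner Rplp1 had 1303 and 1343 CPM of mRNA and 384 and 388 CPM of footprints (TE -1.71, adjusted p = 8.67e-09). Rpsa (-1.83, adjusted p = 2.38e-08) and Rps2 (-1.84, adjusted p = 1.16e-08) were the lowest of the small subunit. At the upper end Rpl23 had 852 and 1336 CPM of mRNA and 1513 and 1517 CPM of footprints (TE 0.57, adjusted p = 0.00788; adjusted p = 0.0707 without mRNA replicate 1). Many of these genes have processed pseudogenes, and how reads shared between copies were assigned is not given in the sources used here.

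TOP tracts are runs of C and T at the start of these transcripts. The RefSeq promoter table (GRCm38.p6) held 59 of the 80 genes by symbol, and windows of 30 bases centred on the annotated start (15 on each side, sense strand only) were searched for a run of at least 8 consecutive C or T. A run was found in 27 of the 59 (45.8%), against 14.7% of the 7105 tested genes with a window and 3943 of all 32851 windows. The median TE with LPS + DEX was -0.36 in members with a run and -0.33 in those without. To show both ends of the range, the windows printed are of 3 members with a run and a lower TE (Rps27, -1.13; Fau, -0.74; Rps10, -0.74) and 3 with a run that were not called (Rps15a, 0.06; Rpl38, 0.08; Rps24, 0.09), with the longest run in capitals. They lie on GRCm38.p6, Rps27 at chr3:90213634-90213663 (- strand), Fau at chr19:6057932-6057961 (+ strand), Rps10 at chr17:27635230-27635259 (- strand), Rps15a at chr7:118116133-118116162 (- strand), Rpl38 at chr11:114668565-114668594 (+ strand), Rps24 at chr14:24490663-24490692 (+ strand).
Rps27: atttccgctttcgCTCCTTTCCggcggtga
Fau: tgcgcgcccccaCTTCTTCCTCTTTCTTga
Rps10: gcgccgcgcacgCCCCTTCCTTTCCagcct
Rps15a: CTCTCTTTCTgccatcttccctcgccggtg
Rpl38: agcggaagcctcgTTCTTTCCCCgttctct
Rps24: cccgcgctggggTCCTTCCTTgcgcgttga
A run on either side of the annotated start was counted. That of Rps15a lies wholly before the annotated start, at the edge of the window. A match is a description of these letters and not of a working tract.

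Other mRNAs known for TOP tracts were split, with 11 of 23 higher and 8 lower (median 0.22). Pabpc1, the poly(A)-binding protein, had 1127 and 1837 CPM of mRNA and 751 and 701 CPM of footprints (TE -0.92, adjusted p = 0.000572) and Ybx1, an mRNA-packaging protein, had 1694 and 1798 CPM of mRNA and 896 and 890.1 CPM of footprints (TE -0.90, adjusted p = 3.71e-06). Npm1, a nucleolar chaperone, had 676 and 1156 CPM of mRNA and 3373 and 3174 CPM of footprints, 3.87-fold above the median gene (TE 1.95, adjusted p = 6.06e-06). Of 38 translation initiation factors 16 were higher and 6 lower (median 0.01, on either side of 0 depending on the analysis). Eif3a, the largest subunit of eIF3, had 168 and 255 CPM of mRNA and 902 and 846 CPM of footprints (TE 2.14, adjusted p = 3.5e-07), and Eif5b, which joins the ribosomal subunits, had a TE of 1.99 (adjusted p = 4.64e-06). Eif4ebp1, the inhibitor of cap binding that mTOR controls, was lower (TE -1.19, adjusted p = 0.000633, from 50.99 and 50.5 CPM of mRNA and 22.98 and 18.5 CPM of footprints). Aminoacyl-tRNA synthetases were higher in 11 of 23 and lower in 2 (median 0.27), led by the bifunctional Eprs (TE 1.82, adjusted p = 2.62e-06). The lower ones, Kars and Vars, both lost their calls without mRNA replicate 1 or RPF replicate 2, and 1 of them without RPF replicate 1 (adjusted p = 0.0551 to 0.353).

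Mitochondrially encoded genes were all lower: 13 of 13, with a median of -3.80. These mRNAs are translated inside mitochondria by ribosomes of another type, which cycloheximide does not hold. They made up 2.30% and 4.33% of the mRNA libraries and 0.217% and 0.190% of the RPF libraries. The mRNA of replicate 2 was thus the higher one, and the list median was -3.36 in replicate 1 and -4.30 in replicate 2. mt-Co3, a core subunit of cytochrome oxidase, had 4121 and 8048 CPM of mRNA and 232 and 207 CPM of footprints (TE -4.64 ± 0.24, adjusted p = 7.69e-09). mt-Nd1, of complex I, was the lowest, with 1588 and 3323 CPM of mRNA and 39.3 and 28.4 CPM of footprints, 63.8-fold below the median gene (TE -5.996, adjusted p = 2.9e-09). mt-Atp8 was nearest to the other genes (TE -1.05, adjusted p = 0.0374), and leaving out mRNA replicate 2 or either RPF library ended its call (adjusted p = 0.0902 to 0.354).

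Nuclear genes of the same organelle did not share this level. Complex I subunits had 5 of 37 higher and 5 lower, with a median of 0.00, and complexes II to V had 16 of 42 higher and 4 lower (median 0.19). Cox7b of cytochrome oxidase had 120.2 and 166 CPM of mRNA and 327 and 338 CPM of footprints (TE 1.30, adjusted p = 8.93e-06), and Ndufs1 of complex I 129 and 153 CPM of mRNA and 324 and 325 CPM of footprints (TE 1.27, adjusted p = 3.54e-06). At the lower end were Cyc1, cytochrome c1 (TE -0.64, adjusted p = 0.00071), and Ndufb8 (TE -0.60, adjusted p = 0.00139). Of 76 mitochondrial ribosomal proteins 19 were lower and 9 higher (median -0.12); the lower count was 11 without mRNA replicate 1, and the higher count 4 or 5 without that library or either RPF library. Lower members of complex I numbered 3 without mRNA replicate 1 and 2 without RPF replicate 1, and those of complexes II to V numbered 2 without either of these or RPF replicate 2.

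Protein folding families lay above the median gene. All 8 subunits of the CCT chaperonin, which folds actin and tubulin, were higher (median 0.62), from Cct7 (TE 0.29, adjusted p = 0.0335) to Cct8 with 369.6 and 415 CPM of mRNA and 870.4 and 827 CPM of footprints (TE 1.18, adjusted p = 1.74e-05). Of 18 heat shock proteins and co-chaperones 14 were higher and none lower (median 0.93). Hsp90aa1, the inducible cytosolic HSP90, had 237 and 375 CPM of mRNA and 1887 and 1640.0 CPM of footprints, 6.16-fold above the median gene (TE 2.62 ± 0.18, adjusted p = 1.13e-07). The mitochondrial chaperonin Hspd1 had 488 and 749 CPM of mRNA and 2618 and 2437 CPM of footprints (TE 2.13, adjusted p = 1.46e-06). In both genes the 2 footprint libraries lay above the 2 mRNA libraries. ER chaperones and the translocon had 19 of 32 higher and 4 lower (median 0.68). The lectin chaperone Canx had 225 and 275 CPM of mRNA and 1379 and 1309 CPM of footprints (TE 2.49, adjusted p = 6.27e-09), whereas Xbp1, a transcription factor of the unfolded protein response, was lower (TE -0.85, adjusted p = 0.000336). Cct7 was not called in 8 of 25 alternatives, among them those without mRNA replicate 2, RPF replicate 1 or RPF replicate 2 (adjusted p = 0.0651 to 0.256). The lower ER members numbered 1 without mRNA replicate 1 and 2 without RPF replicate 2, and 1 heat shock member was lower without mRNA replicate 2.

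Nuclear and cytoskeletal housekeeping families were on the same side. Splicing factors had 32 of 44 higher and 2 lower (median 0.66), with Hnrnpu, a nuclear scaffold protein, at 372 and 499 CPM of mRNA and 2166 and 2047 CPM of footprints (TE 2.35, adjusted p = 1.67e-08). Nucleolar factors of ribosome biogenesis had 18 of 36 higher and 5 lower (median 0.48), led by Ncl, nucleolin, at 887 and 1444 CPM of mRNA and 6039 and 5277 CPM of footprints (TE 2.38, adjusted p = 5.03e-07). Actin cytoskeleton genes had 23 of 37 higher and 4 lower (median 0.57). Beta-actin, Actb, had 3171 and 2579 CPM of mRNA and 9924 and 9652 CPM of footprints, 3.58-fold above the median gene (TE 1.84, adjusted p = 8.68e-07). The Arp2/3 complex held both ends of that list, Actr2 at 2.73 (adjusted p = 1.33e-07) and Arpc1a at -2.34 (adjusted p = 3.46e-06). Proteasome subunits had 21 of 42 higher and 1 lower, Psmd8 (median 0.31; -0.34, adjusted p = 0.0248, and 0.143 to 0.23 without mRNA replicate 1 or RPF replicate 1; 2 were lower without mRNA replicate 2). The lower splicing factors numbered 0 without RPF replicate 1, 1 without mRNA replicate 1 and 4 without mRNA replicate 2, and the lower nucleolar factors 2 or 3 without mRNA replicate 1 or either RPF library.

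Glycolysis enzymes had 8 of 19 higher and 1 lower (median 0.22). Hk2, an inducible hexokinase, had 65.2 and 62.03 CPM of mRNA and 276 and 275 CPM of footprints (TE 2.16, adjusted p = 1.67e-06), and the lower member was Gapdh, with 6018 and 4781 CPM of mRNA and 3918 and 3919.7 CPM of footprints (TE -0.39, adjusted p = 0.00419; adjusted p = 0.0559 without mRNA replicate 1). Cholesterol synthesis genes had 13 of 22 higher and 2 lower (median 0.66): Hmgcs1 was at 2.11 (adjusted p = 2.65e-05), while Srebf2, the transcription factor that controls the pathway, was lower (TE -1.08, adjusted p = 0.000436), as was Mvk (TE -1.74, adjusted p = 0.00373). Lysosome and V-ATPase genes had 20 of 45 higher and 3 lower (median 0.36), with Lamp2 at 2.19 (adjusted p = 6.95e-07) and the hexosaminidase Hexa at -0.90 (adjusted p = 2.21e-05). DNA replication genes had 13 of 29 higher and 3 lower (median 0.29), and macrophage markers 14 of 27 higher and 4 lower (median 0.50). Among those markers Ptprc, CD45, had 61.3 and 103 CPM of mRNA and 419.8 and 454 CPM of footprints (TE 2.51, adjusted p = 7.18e-07), and the lineage factor Spi1, PU.1, had 472 and 419.6 CPM of mRNA and 235 and 251 CPM of footprints (TE -0.80, adjusted p = 4.97e-05). The number of higher members was 8 for cholesterol synthesis without mRNA replicate 1 or RPF replicate 1 and 5 for glycolysis without mRNA replicate 2 or RPF replicate 1. That of lower members was 1 for the lysosome without mRNA replicate 1 or RPF replicate 1, 1 for replication without these, RPF replicate 2 or either basal RPF library, and 2 for glycolysis without mRNA replicate 2.

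Iron genes held some of the widest gaps between mRNA and footprints. Fth1, ferritin heavy chain, had 17395 and 15593 CPM of mRNA and only 739.7 and 729 CPM of footprints, 21.4-fold below the median gene (TE -4.42 ± 0.09, adjusted p = 3.88e-12). Ftl1, the light chain, had 5383 and 4515 CPM of mRNA and 131 and 142 CPM of footprints, 34.2-fold below (TE -5.10 ± 0.13, adjusted p = 1.25e-11). Its near-identical copy Ftl1-ps1 had 3168 and 2904 CPM of mRNA and 74.9996 and 105 CPM of footprints, and reads of the pair may have been divided between them. Ferritin mRNAs carry an iron-responsive element before the coding sequence, where iron regulatory proteins block initiation. The transferrin receptor Tfrc carries such elements after the coding sequence, where they protect the mRNA. Tfrc had 47.8 and 76.2 CPM of mRNA and 703 and 634 CPM of footprints, 11.4-fold above the median gene (TE 3.51 ± 0.18, adjusted p = 7.13e-09). The part of these elements in the levels of the iron genes was not tested. Ireb2, an iron regulatory protein, was higher (TE 1.48, adjusted p = 0.000167) and its relative Aco1 was not called (0.31, adjusted p = 0.174). The iron transporters Slc40a1 (-1.26, adjusted p = 0.0301), Slc11a1 (-0.53, adjusted p = 0.0286) and Slc11a2 (-0.54, adjusted p = 0.0311) were lower, but among the 25 alternatives the number of lower iron genes, 5 of 9, went down to 2 or 3 without mRNA replicate 1, mRNA replicate 2 or RPF replicate 2.

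In polyamine synthesis 6 of 8 genes were lower and none higher (median -0.94). Oaz1, the antizyme whose reading needs a ribosomal frameshift, had 989 and 932 CPM of mRNA and 139 and 196 CPM of footprints, 5.54-fold below the median gene (TE -2.47 ± 0.16, adjusted p = 7.05e-08). Odc1, the decarboxylase it inhibits, had 698 and 698 CPM of mRNA and 264 and 285 CPM of footprints (TE -1.28, adjusted p = 1.67e-06), and Oaz2 stood at -1.86 (adjusted p = 0.00154).

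Replication-dependent histone genes gave the highest ratios of all: 59 of 59 were higher, with a median of 7.72. Most of these mRNAs end in a stem-loop in place of a poly(A) tail, and the mRNA libraries were made from poly(A) RNA. Together they took 0.0808% and 0.0559% of the mRNA libraries and 2.78% and 3.01% of the RPF libraries. In 25 of the 59 both mRNA libraries were at or under 3 reads, and their fitted ratios depend on the 1 CPM added. The filter took a mean over both assays, so these 25 passed it through footprints alone. That they lay above the median gene was thus set in advance. With footprints of these set against 3 reads of mRNA and no CPM added, each is a lower bound, and the list median was 7.94. The linker histone Hist1h1b had 1.98 and 0 CPM of mRNA and 900.0 and 927 CPM of footprints. Hist1h2ap (84.99 and 62.9 CPM of mRNA and 325 and 366 CPM of footprints, TE 2.29, adjusted p = 3.4e-07) and Hist1h2ao (81.4 and 56.7 CPM of mRNA and 350.2 and 356 CPM of footprints, TE 2.43, adjusted p = 6.93e-07) had the lowest ratios. Only 19 histone genes had at least 10 reads in each of the 4 libraries, and all 19 were higher. Across the 25 alternatives, this filter among them, the list median ran from 3.22 to 8.45, so its size depends on the genes kept. The coding sequences of histone copies are nearly identical, so single genes are uncertain.

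Among the 10 highest ratios by the rule used to name genes, 6 were named histones and 4 were identifiers with no symbol in the tables used here, all with at most 2.37 CPM in either mRNA library. Among the 10 lowest were mt-Nd1, Ftl1, Ftl1-ps1 and Ppp1r15a, given with their families. The lowest was B4galt4, a galactosyltransferase, with 1908 and 1269 CPM of mRNA and 0 and 1.64 CPM of footprints, at or under 3 reads in both RPF libraries. Its mRNA varied widely outside LPS + DEX, with 21.9 and 218 CPM after LPS and 0 and 152 CPM in basal cells. Zfp174 (198 and 135 CPM of mRNA), Apol6 (85.8 and 60.3), 4930404N11Rik (69.6 and 70.9) and Rcan2 (42.7 and 41.2) were likewise at or under 3 reads in the RPF libraries. Genes that low in 1 assay passed the filter through the other assay alone. Klhl29 had 225 and 132 CPM of mRNA and 2.42 and 1.64 CPM of footprints. RefSeq types, matched by symbol, gave a median of 0.01 for 8653 protein-coding genes, -0.17 for 179 pseudogenes and -0.66 for 14 long noncoding RNAs. The noncoding snoRNA host Zfas1 had 14.2 and 13.3 CPM of mRNA and 0 and 0.545 CPM in the RPF libraries.

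Set against LPS alone, few TE levels with LPS + DEX passed the test. A test of the difference between the treatments (interaction in limma, 4 against 4 libraries in the fit of all 12) called 2 genes higher (0.0217%) and 4 lower (0.0434%), and 570 had an unadjusted p under 0.05. Sdhb, the iron-sulfur subunit of complex II, had 134 and 135 CPM of footprints with LPS and 296 and 286 with LPS + DEX, at 406 and 379.6 CPM of mRNA with LPS and 395 and 358 with LPS + DEX (difference 1.18 ± 0.15 (SE), adjusted p = 0.0182). E2f4, a cell cycle repressor, was higher as well (difference 1.29 ± 0.21 (SE), adjusted p = 0.0462). Dok1, an adaptor that restrains tyrosine kinase signalling, had 148 and 152 CPM of footprints with LPS and 51.4 and 38.2 with LPS + DEX, at 58.5 and 65.5 CPM of mRNA with LPS and 69.2 and 65.1 with LPS + DEX (difference -1.85 ± 0.26 (SE), adjusted p = 0.0182). The other lower genes were Gabre, Gm20594 and Ttn. None of the 6 kept its call without mRNA replicate 1 or 2 or RPF replicate 2 of LPS, or RPF replicate 2 of LPS + DEX (adjusted p 0.0562 to 0.218). No feedback, early factor, cytokine or glucocorticoid gene was among the 6: for Tnf the difference was -0.61 ± 0.27 (SE), adjusted p = 0.731, for Nfkbia -0.05 ± 0.22 (SE), adjusted p = 1, for Dusp1 0.35 ± 0.54 (SE), adjusted p = 0.995, and the nearest, Sdc4, had -1.33 ± 0.27 (SE), adjusted p = 0.0911. Calls ranged from 0 to 14 higher and 0 to 31 lower over the alternatives, so that differences are not shown to be absent; without basal mRNA replicate 1 they were 13 and 26, without basal mRNA replicate 2 they were 12 and 26, and without RPF replicate 1 of LPS 13 and 7. Mitochondrially encoded genes had a median of -3.80 with LPS + DEX and -2.09 with LPS, and none of the 13 passed (mt-Co3, for example, with -1.35 ± 0.34 (SE), adjusted p = 0.222).

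Set against basal cells, TE was higher for 441 genes (4.79%) and lower for 364 (3.95%); without basal mRNA replicate 1 the counts were 396 and 326, and without centring 256 and 1151; the median ratio before centring was lower by 0.29 (log2) than in basal cells. Ribosomal protein genes were higher in 71 of 80, with median levels of -1.30 in basal cells, -0.43 with LPS and -0.39 with LPS + DEX, and in 68 of 80 without that library. Without centring 50 were higher and 1 lower. Rps15a, for example, went from 2326 and 2636 CPM of mRNA and 1074 and 1122 CPM of footprints in basal cells to 1195 and 1308 CPM of mRNA and 1237 and 1255 CPM of footprints (difference 1.46 ± 0.14 (SE), adjusted p = 0.000137; 1.501 without basal mRNA replicate 1).

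**Figure D4:**
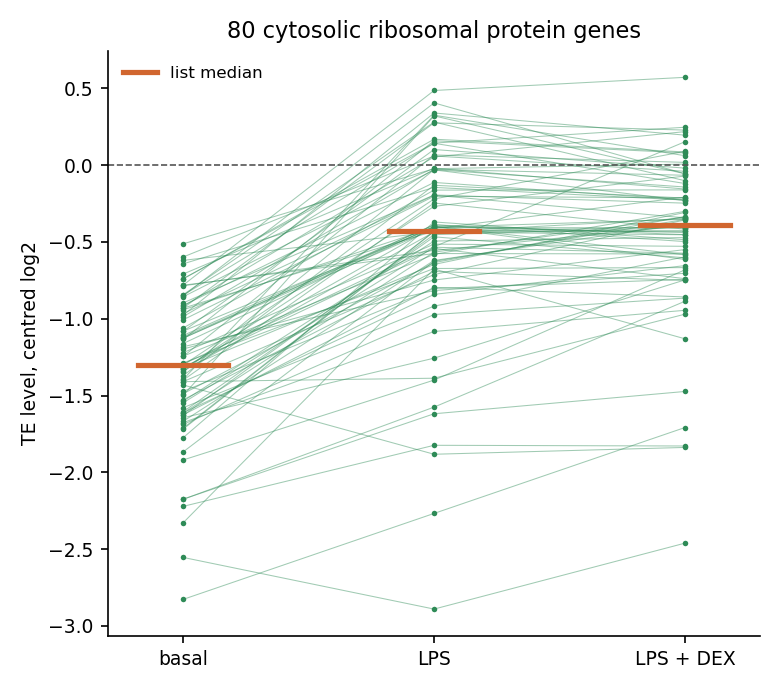
TE level (log2, centred within each treatment) of each of the 80 cytosolic ribosomal protein genes in basal cells, with LPS and with LPS + DEX; thin lines join a gene and orange bars are medians. The median is -1.30 in basal cells, -0.43 with LPS and -0.39 with LPS + DEX.

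Of 123 tested members of the feedback, stress, early factor, NF-kB subunit, cytokine and glucocorticoid lists 13 passed as lower than in basal cells and 2 as higher (3.95% and 4.79% over all genes), and 108 did not pass. Sdc4 went from a TE of 1.92 to -0.56 (difference -2.48 ± 0.27 (SE), adjusted p = 0.000296). Its mRNA was 21.02 and 28.7 CPM in basal cells and 245 and 206 CPM with both agents, and its footprints 114 and 109 CPM in basal cells and 161 and 130.3 CPM with both agents. Rela had more mRNA, 31.9 and 35.2 against 108 and 83.3 CPM, and fewer footprints, 58.002 and 51.3 against 33.3 and 47.4 CPM (difference -1.63 ± 0.29 (SE), adjusted p = 0.00455). The amino acid transporter Slc7a5 showed the same pattern, with 60.3 and 55.2 against 139 and 97.04 CPM of mRNA and 164 and 198 against 125 and 128 CPM of footprints (difference -1.21 ± 0.24 (SE), adjusted p = 0.0082). Without basal mRNA replicate 1 the differences were -2.31 for Sdc4, -1.61 for Rela and -1.32 for Slc7a5. These 3 passed in each of the 23 alternatives that hold basal libraries.

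Ppp1r15a had 39.3 and 47.6 CPM of mRNA and 3.05 and 4.603 CPM of footprints in basal cells, both under its levels with both agents, and its ratio was lower with both agents (difference -1.77 ± 0.40 (SE), adjusted p = 0.0162). In the basal RPF libraries 1 read was worth 0.763 and 0.658 CPM, so its basal ratio rests on few reads and on the 1 CPM added. The limma-voom fit of recovered reads called neither this difference (adjusted p = 0.35) nor those of Tnfaip3 (adjusted p = 0.135) and Pdgfb (adjusted p = 0.076). Srf (difference -1.73 ± 0.37 (SE), adjusted p = 0.0127), Cebpb (-1.23 ± 0.26 (SE), adjusted p = 0.012) and Per1 (-1.84 ± 0.44 (SE), adjusted p = 0.022) were also lower, as were Ppp1r15b, Pdgfb, Mt1, Zfp36l2 and Grn. For Tnfaip3 the difference was -1.62 ± 0.44 (SE), adjusted p = 0.0365, and without basal mRNA replicate 1 it was no longer called (adjusted p = 0.0576). Anxa1 and Eif2s1 were the 2 higher members, and neither was called without centring (adjusted p = 0.11 and 0.109). The other 12 lower members kept their calls without basal mRNA replicate 1, with differences of -1.68 for Ppp1r15a, -1.48 for Srf, -1.57 for Cebpb, -1.65 for Per1, -1.100 for Ppp1r15b, -2.15 for Pdgfb, -0.83 for Mt1, -0.95 for Zfp36l2 and -0.61 for Grn; Tnfaip3 was at -1.43, Anxa1 at 0.995 and Eif2s1 at 0.94. Leaving out 1 library of LPS + DEX or another of basal cells ended the calls of Ppp1r15a, Srf, Cebpb, Per1, Mt1, Zfp36l2, Pdgfb, Grn, Tnfaip3, Anxa1 and Eif2s1 in at least 2 cases each, and that of Ppp1r15b without RPF replicate 1 (adjusted p 0.0511 to 0.183).

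**Figure D5:**
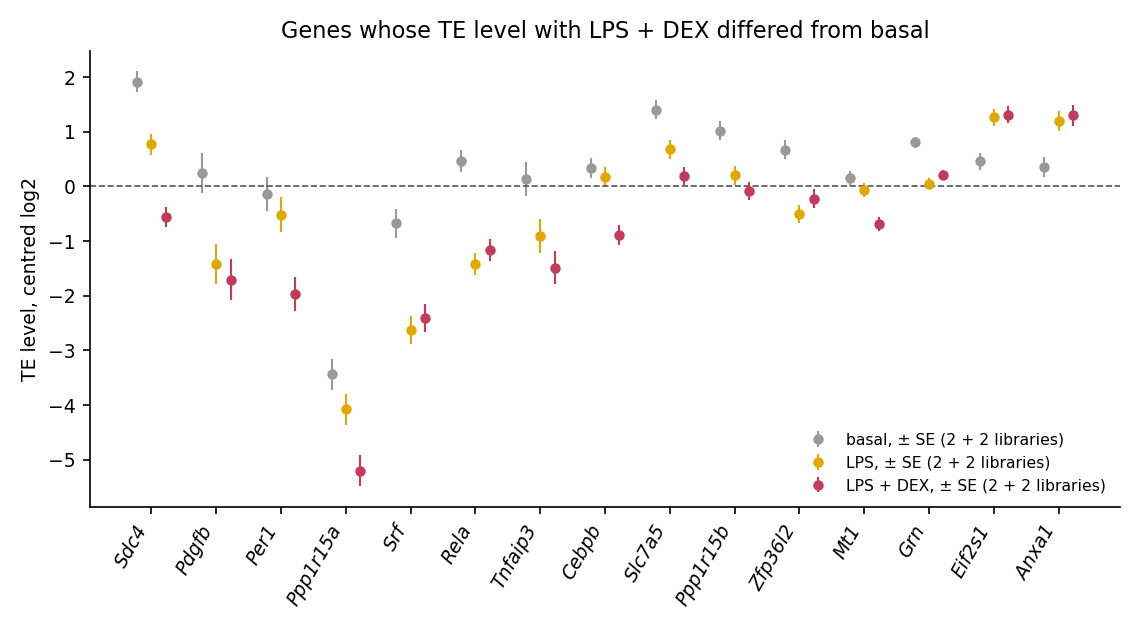
TE level (log2, centred within each treatment, ± SE from limma) in basal cells (grey), with LPS (yellow) and with LPS + DEX (red) for the 15 members of the feedback, stress, early factor, NF-kB subunit, cytokine and glucocorticoid lists whose level with LPS + DEX differed from basal. The red points lie below the grey ones in 13 genes and above them in Eif2s1 and Anxa1.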

How the data were processed

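RAW264 cells were profiled with poly(A) mRNA and ribosome footprint libraries sequenced on an Ion PGM instrument. The authors deposited 1 value per gene and library, a CPM to which 1 had been added: the lowest deposited value is 1 in each library, and after subtracting 1 all values under 1000 CPM were whole multiples of 1 read (tolerance 0.1 read). The sources used here give no aligner, counting rule or genome build. All 9621 listed genes hold 97.4% to 98.9% of each library's reads.

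TE was fitted with limma 3.58.1 (trend, R 4.3.3) on log2(CPM + 1) over all 12 libraries and 6 groups, centred on the median gene within each treatment, for genes with a mean of at least 5 CPM over the 4 LPS + DEX libraries (9215 tested, 406 not). P-values are two-sided and Benjamini-Hochberg adjusted over all tested genes. They rest on the spread between the 2 biological replicates within each of the 6 groups, moderated by limma. The basal and LPS libraries therefore bear on the calls for LPS + DEX. The fit was tested on simulated data. The libraries were treated as unpaired. Correlations of replicate deviations between mRNA and RPF were -0.010 to -0.015, which cannot decide whether libraries of one number shared a culture.

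Members and gene lists were chosen with earlier results of these data known. Genes were named as follows: the 10 highest and 10 lowest TE levels that passed, with assays that do not overlap and a mean of at least 20 CPM; every tested member of the feedback, early factor, cytokine, glucocorticoid and stress lists; the 2 highest and 2 lowest of every other list; and the 5 highest and 5 lowest of each difference. Oaz2, Rpl7, Aco1, Slc40a1, Slc11a1, Slc11a2 and Zfas1 were named after their values were seen. The 6 printed windows are the 3 lowest and 3 highest ribosomal protein genes with a run, after the genes of a single chromosome had been left out. One named gene and its list are not reported here. The alternatives were other filters, offsets, scalings, centrings, a voom fit of recovered reads, a replicate block, fewer groups in the fit and each library left out.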

Additional observations from a re-analysis of the deposited data

Results flagged for a closer look

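Tests of the difference between treatments (interaction terms in limma, adjusted over all genes) picked out the following results, each as a log2 difference in TE. LPS + DEX differed from LPS in 2 genes that were higher, Sdhb (1.18) and E2f4 (1.29), and 4 that were lower, Gabre (-3.67), Gm20594 (-3.35), Ttn (-1.92) and Dok1 (-1.85).

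LPS + DEX differed from basal cells in 441 genes that were higher and 364 that were lower. The highest were Acp4 (5.26), Gm10064 (3.75), Gm8888 (3.74), Best3 (3.43) and Neurl4 (3.33), and the lowest Sh3rf1 (-4.42), Grrp1 (-4.08), Cbarp (-3.65), Shank3 (-3.42) and Xylb (-3.27). Without mRNA of basal replicate 1 the differences were 4.77 for Acp4, 2.86 for Gm10064, 2.38 for Gm8888, 4.51 for Best3 and 3.22 for Neurl4, with Gm8888 no longer called (adjusted p = 0.0703), and -4.59 for Sh3rf1, -3.80 for Grrp1, -3.66 for Cbarp, -3.29 for Shank3 and -2.59 for Xylb. The limma-voom fit of recovered reads called only Neurl4 and Grrp1 of these 10 (adjusted p of the others 0.055 to 0.248). Leaving out 1 library of LPS + DEX or basal cells also ended the calls of Gm8888, Best3 and Cbarp in several cases each (adjusted p 0.0559 to 0.14), of Shank3 (RPF replicate 2 of LPS + DEX, adjusted p = 0.0627) and of Acp4 (RPF replicate 1 of LPS + DEX, adjusted p = 0.0712). Of the signalling lists, lower members were Sdc4 (-2.48), Pdgfb (-1.96), Per1 (-1.84), Ppp1r15a (-1.77), Srf (-1.73), Rela (-1.63), Tnfaip3 (-1.62), Cebpb (-1.23), Slc7a5 (-1.21), Ppp1r15b (-1.10), Zfp36l2 (-0.90), Mt1 (-0.84) and Grn (-0.60). Anxa1 (0.94) and Eif2s1 (0.85) were higher. The limma-voom fit did not call Ppp1r15a, Tnfaip3 or Pdgfb.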

How the results depend on the processing

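Across 25 alternatives the number of genes with a higher TE level ranged from 1820 to 2633 and with a lower one from 1614 to 2784. Of 254 named genes 173 were called, 132 of them in every alternative and 41 not in some, and no called gene changed direction. Of the 81 that were not called, 31 were called in some alternative. The difference from LPS rested on few calls (2 higher, 4 lower): 5 and 2 with at least 10 reads in each of the 4 libraries, 7 and 10 with log2(CPM + 2), 1 and 1 with voom, 14 and 31 in a fit of the 8 libraries of LPS and LPS + DEX, and 0 to 13 and 0 to 26 when 1 library was left out. For the difference from basal cells, calls numbered 256 higher and 1151 lower without centring, and 202 to 632 and 113 to 514 when 1 library was left out; the cause of the other shifts was not tested. With the replicate number as a block, 2337 genes were higher and 2229 lower in TE level, and 353 and 273 differed from basal cells. In that fit 0 and 0 differed from LPS in limma (521 at an unadjusted p under 0.05). Whether replicate numbers pair the libraries is not known. The planned count-model alternative was not run, since the deposited values carry an offset. At 0.395 to 0.605 CPM per read, genes of a few CPM rest on few reads.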
